A study of Mus musculus with 4 samples.

Results

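The kinesin family was examined in testis RNA of mice mutant for Lrrc8a (MUT) and of wild-type mice (WT). The deposited expression table is in CPM (reads relative to a library size that was not the plain total of reads). The members were all its symbols that read Kif or Klc followed by a number, with letters allowed after a Kif number. This gave 43 of 24420 symbols. Of these, 37 are kinesin motor genes and 4 are light chain genes. The rule also takes in 2 genes that encode no kinesin chain: Kif1bp, whose product binds a kinesin motor, and Kif16bos, an antisense transcript annotated beside Kif16b. Both were kept and are given apart. Kinesins with other symbols, such as Kifc1 and Cenpe, fall outside the rule and are described at the end.

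Kinesins are motor proteins that bind microtubules and hydrolyse ATP. Most of them walk toward the growing end of the microtubule and carry vesicles, organelles, protein complexes or RNA. Others push spindle microtubules apart, hold chromosomes, or take microtubules apart from their ends. In the testis they serve the mitotic and meiotic spindles and cytokinesis of germ cells, the shaping of the spermatid head along the manchette, and the building and beating of the sperm flagellum.

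Each genotype had 2 libraries, labelled MUT 1 and MUT 2 and WT 1 and WT 2, of the FVB strain. The labels give germ cells as the cell type but testis tissue as the source, with no step that sorts cells, so the values are those of whole tissue. Not given in the sources used here are the kind of mutation, whether it is confined to a cell type, the age of the mice, and whether each library is from its own animal. The p-values below therefore rest on the variation among these 4 libraries, part or all of which could be technical. In bulk tissue, fewer cells of a type and less RNA per cell cannot be told apart.

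Reads assigned to genes numbered 48409785 and 40426400 in the MUT libraries, against 68192776 and 50162558 in those of WT. Lrrc8a itself was at 13.5 and 15.9 CPM in MUT testis against 18.2 and 17.2 CPM in WT testis, which was not a called difference (log2 fold change -0.26, SE 0.0998, limma adjusted p = 0.218). Every germ cell, Sertoli and Leydig marker checked was detected. Of 8 Sertoli markers, 6 lay above 0 on the log2 fold scale and 2 below, and none was called. Both MUT libraries were above both WT libraries for 5 of these 8 (62.5%, against 23.0% of all tested genes). Among the elongating spermatid markers, 1 lay above 0 and 5 below, and none was called. The 6 elongating spermatid markers summed to 14010 and 13280 CPM in MUT testis against 15000 and 13680 CPM in WT testis, and the 4 epididymis markers to at most 1.12 CPM in any library. Of 6 Leydig markers, 5 lay above 0 on the log2 fold scale and 1, Cyp17a1, was called higher, with sums of 1057 and 1096 CPM in MUT against 915.3 and 896.4 CPM in WT testis. Of 7 spermatogonial markers 5 lay above 0, and Kit was called higher, at 20.7 and 23.1 CPM in MUT testis against 14.6 and 17.0 CPM in WT testis (log2 fold change 0.46, SE 0.0987, limma adjusted p = 0.033). Of 5 macrophage markers, 2 lay above 0 and 3 below. Of these only Cd74 was called lower (-0.59, SE 0.126, adjusted p = 0.033), and the libraries of the others overlapped between the genotypes. All 5 peritubular myoid markers lay below 0, with sums of 94.98 and 104.3 CPM in MUT testis against 117.3 and 110.2 CPM in WT testis. The part of these cell types in the kinesin values below was not tested.

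Of the 43 members, 42 reached 1 CPM in at least 2 libraries and were tested. The member left out was Kif12, which had no read in any library. A count of 0 allows up to 0.0615 and 0.0733 CPM in MUT testis against 0.0445 and 0.0603 CPM in WT testis, for counting error alone. A single member was called higher in MUT testis, the kinesin-1 heavy chain gene Kif5b, and none was called lower. That is 1 of 42, or 2.38%, against 0.749% of the 15364 tested genes called in either direction and 0.482% called higher. The 42 members had a median log2 fold change of -0.03, with a range of -0.27 to 0.40, and the median over all tested genes was -0.0016. Of the members, 27 lay below 0 and 15 above (all tested genes: 50.4% below and 49.6% above), but with every library rescaled to the same total 20 lay below and 22 above. That rescaling shifted all genes together: the median was then 0.0031 over the members and 0.0258 over all tested genes, so the members' median was below that of all genes under both scalings. Both MUT libraries were above both WT libraries for 7 members (16.7%, against 23.0% of all tested genes) and below them for 13 (31.0%, against 22.6%), which makes 20 of 42 without overlap, against 45.6% of all tested genes. At an unadjusted p under 0.05 there were 4 members higher and 5 lower, or 9 of 42 (21.4%), against 14.7% of all tested genes, 7.74% higher and 6.98% lower.

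**Figure D1:**
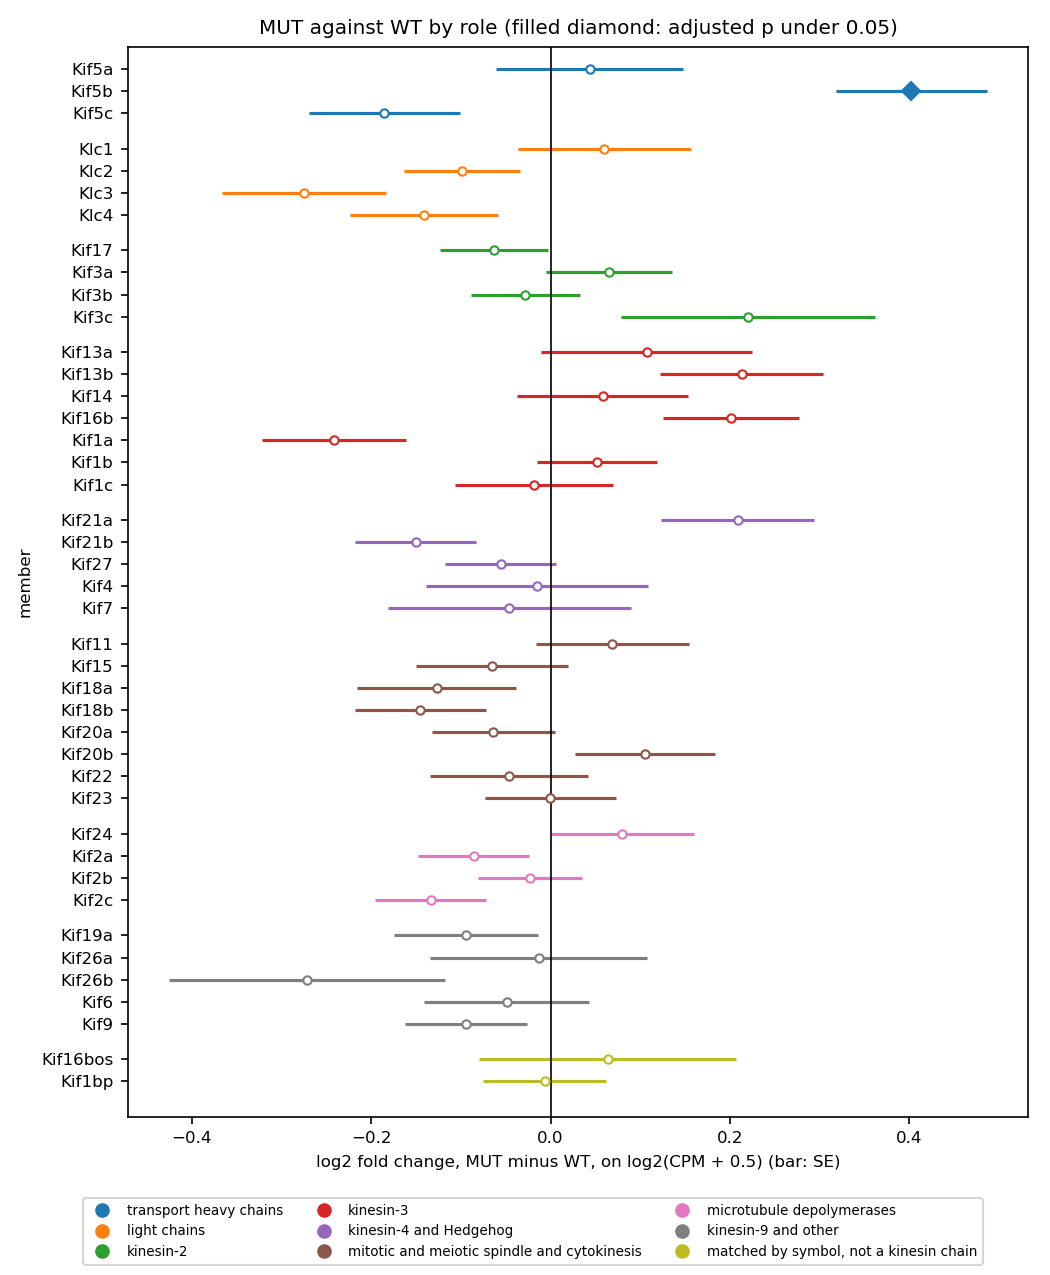
Log2 fold change of each tested member (x axis, MUT minus WT, on log2(CPM + 0.5), with its SE as the bar), grouped and coloured by role. Kif5b, at 0.40, is the filled diamond and the member past the test; the other members lie between -0.27 and 0.22.

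The levels of the family spanned a wide range in both genotypes, from Kif26b up to the depolymerase Kif2b. Levels of different genes are compared as CPM per kb of the longest annotated protein-coding transcript. By that measure Kif2b was highest, at 323.9 CPM per kb in MUT and 329.1 in WT, followed by Kif17 at 169.6 in MUT and 177.2 in WT. Next came Kif2c at 112.8 in MUT and 123.7 in WT, Kif9 at 102 in MUT and 108.6 in WT, and Kif27 at 61.61 in MUT and 64.02 in WT. Kif2c lay above Kif9 in each library, though only just in MUT 2, at 110.1 against 109.0 CPM per kb. Further down, Kif2a (44.87 in MUT and 47.64 in WT) and Klc2 (44.34 in MUT and 47.5 in WT) did not differ beyond the spread between libraries. The 5 highest genes made up 63.2% and 62.7% of the summed CPM per kb of all members in MUT 1 and MUT 2, against 63.2% and 63.4% in WT 1 and WT 2. At the low end, Kif26b averaged 0.130 CPM per kb in MUT and 0.164 in WT, and Kif3c averaged 0.484 in MUT and 0.405 in WT. The annotated transcript of Kif2b is only as long as its gene, 2244 nt on the minus strand of chromosome 11 from 91575315 to 91577558, so a longer real transcript would lower its value per kb.

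**Figure D2:**
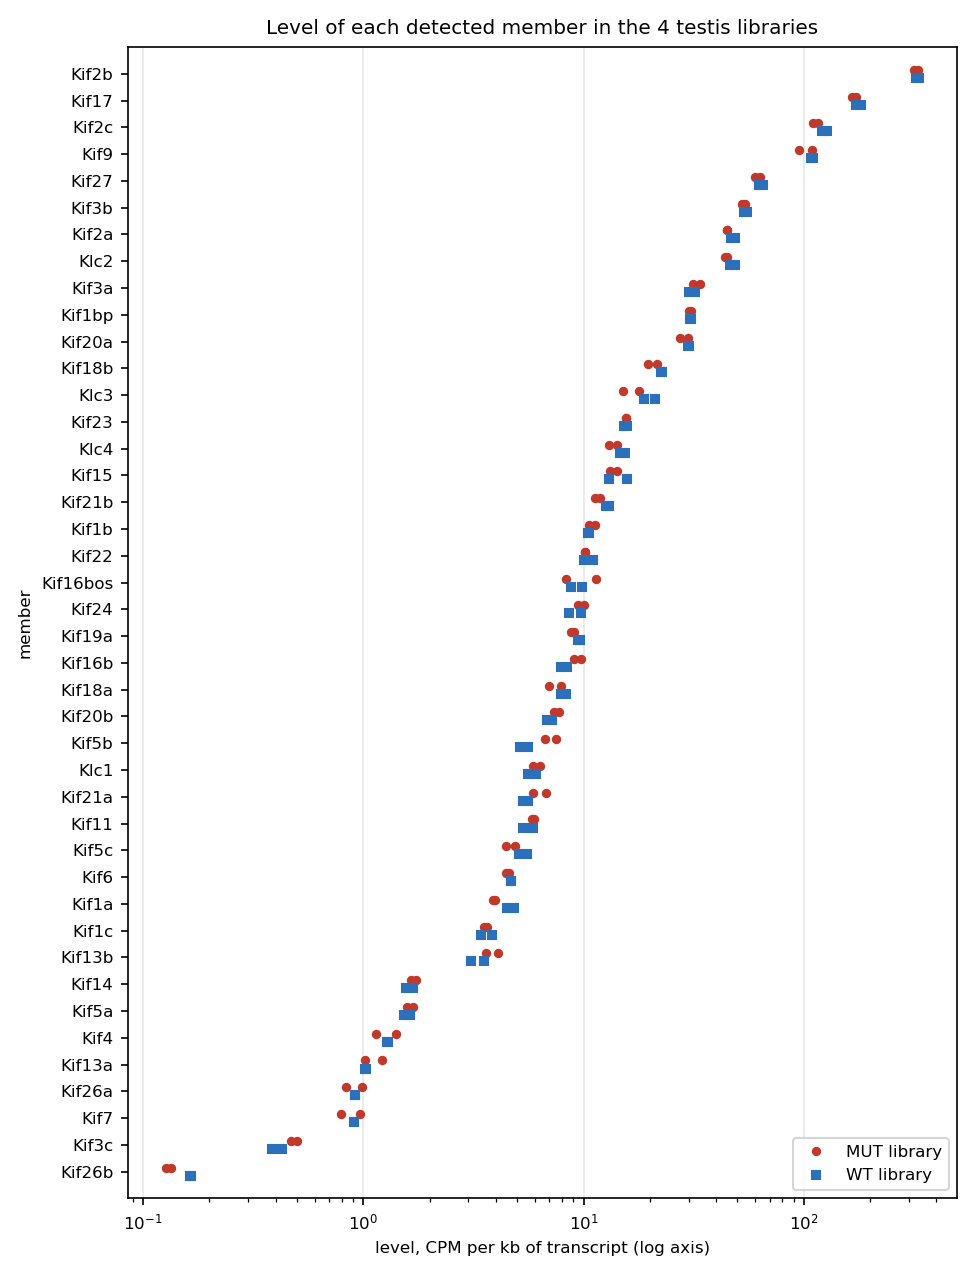
Level of each of the 42 detected members in CPM per kb of transcript (log axis), with MUT libraries as circles drawn above WT libraries as squares. Members are ordered by their mean, from Kif26b at the bottom to Kif2b at the top, and the symbols of the 2 genotypes lie close together in every row.

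Kinesin-1 is the conventional transport motor, a pair of heavy chains (Kif5a, Kif5b or Kif5c) joined to a pair of light chains that bind cargo. Kif5b is the heavy chain found in most cell types, while Kif5a and Kif5c are best known from neurons. Kif5b was at 45.4 and 40.4 CPM in MUT testis against 30.9 and 33.7 CPM in WT testis, from 2216 and 1653 reads in MUT and 2084 and 1678 reads in WT. Both MUT libraries were above both WT libraries, and the lower MUT value lay well clear of the higher WT value. Its mean was 42.9 ± 3.57 CPM in MUT testis against 32.3 ± 2.0 CPM in WT testis (SD, n = 2 each), a log2 fold change of 0.40 (SE 0.0844, 95% interval 0.23 to 0.58, limma adjusted p = 0.0309). The gene lies on the minus strand of chromosome 18 from 6201002 to 6242174 (ENSMUSG00000006740 in GENCODE vM21, build GRCm38, also called mm10). The antisense genes Gm17036 and AC113003.1 are annotated across part of it and are not listed in the table, and whether the counting kept strands apart is not known.

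The call of Kif5b was lost without MUT 1 (log2 fold change 0.32, limma adjusted p = 0.234) and without WT 1 (0.34, adjusted p = 0.0594). It held in edgeR and DESeq2 on the recovered reads (adjusted p = 0.0302 and 0.00682) and once the dependence on GC content and length was taken out of every library (log2 fold change 0.34, adjusted p = 0.0413). The Kif5b transcript has a GC content of 41.1%, below the medians of 48.3% for members above 0 and 51.4% for members below 0. Over all tested genes these medians were 48.6% and 51.5%, so the split was not particular to the kinesins. The log2 fold change of Kif5b was above 0 in all 17 alternatives and past the threshold in 11 of them.

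**Figure D3:**
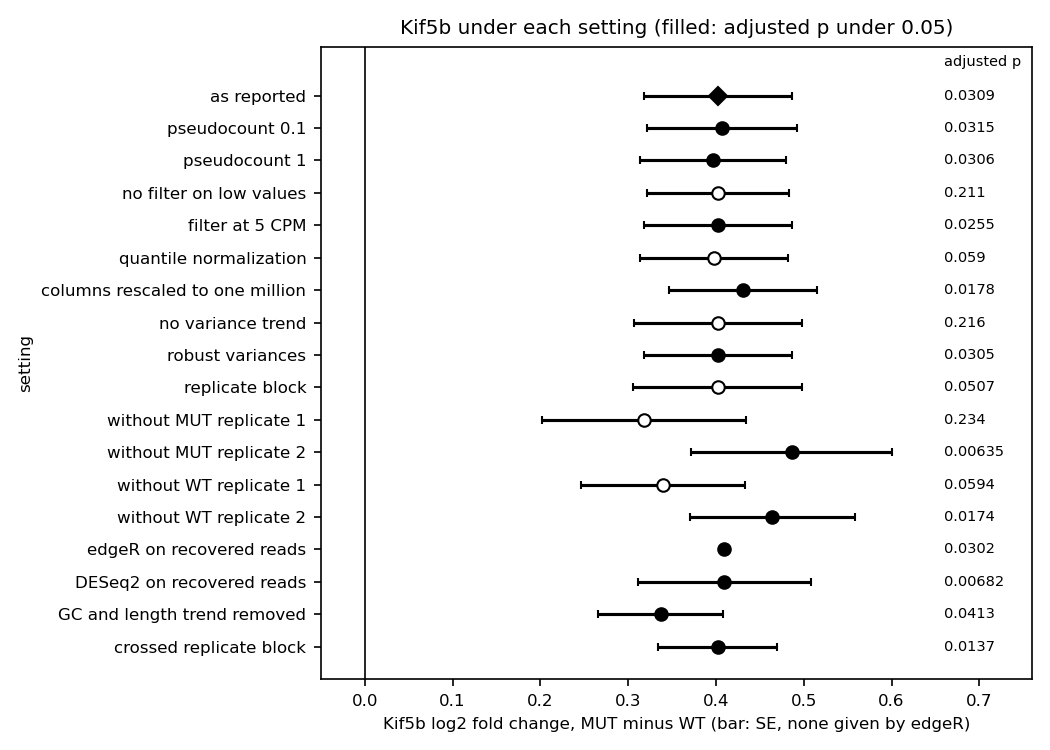
Log2 fold change of Kif5b, MUT minus WT (x axis, with its SE as the bar), as reported and under each alternative, with the adjusted p at the right. Filled symbols mark an adjusted p under 0.05; the value ranges from 0.32 without MUT replicate 1 to 0.49 without MUT replicate 2.

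Neither of the other heavy chains passed the test. Kif5c was at 33.6 and 30.5 CPM in MUT testis against 34.9 and 38.1 CPM in WT testis (log2 fold change -0.19, SE 0.0842, limma adjusted p = 0.313). Kif5a was at 10.6 and 9.94 CPM in MUT testis against 10.2 and 9.67 CPM in WT testis (0.04, SE 0.104). The MUT values of Kif5c all lay below those of WT, and those of Kif5a overlapped. Within a library, Kif5b made up 53.4% and 52.6% of the summed CPM per kb of the 3 heavy chains in MUT, against 43.3% and 44.1% in WT. Kif5c made up 34.7% and 34.9% in MUT and 43.0% and 43.8% in WT. The sum itself was at 14.12 and 12.72 CPM per kb in MUT and 11.84 and 12.68 in WT, so that MUT 2 and WT 2 were all but equal. These shares do not depend on how the libraries are scaled, but with 2 libraries against 2 they were not tested.

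Of the 4 light chain genes, 3 were lower in both MUT libraries than in both WT libraries, although none passed the test. Of all tested genes, 22.6% were lower in this way. Klc3, the light chain of spermatids, which in the rat binds the outer dense fibres and mitochondria of the sperm tail, was at 34.0 and 28.7 CPM in MUT testis against 35.8 and 40.1 CPM in WT testis (log2 fold change -0.27, SE 0.0918, 95% interval -0.47 to -0.08, limma adjusted p = 0.169). Klc4 was at 30.2 and 33.1 CPM in MUT testis against 35.8 and 34.1 CPM in WT testis, and Klc2, the most abundant, at 139.7 and 141.3 CPM in MUT testis against 154.2 and 146.8 CPM in WT testis. Klc1 overlapped, at 15.8 and 14.7 CPM in MUT testis against 15.2 and 14.0 CPM in WT testis. Summed per kb, the light chains came to 81.3 and 79.8 CPM in MUT testis against 89.0 and 87.7 CPM in WT testis. The light chain sum was thus lower in both MUT libraries, and neither it nor the heavy chain sum was tested. Klc2, Klc3 and Klc4 stayed below 0 in all 17 alternatives, the scaling ones included. Their size was less steady than their sign. The highest log2 fold changes over the alternatives were -0.011 for Klc2, -0.144 for Klc3 and -0.066 for Klc4. As reported, the values were -0.098, -0.27 and -0.14 in the same order. Keeping one sign throughout was not particular to them, as 23 members did so. Klc3 overlaps Ercc2 and Klc1 overlaps Xrcc3 on the opposite strand, so that without strand-aware counting their reads could be mixed.

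**Figure D4:**
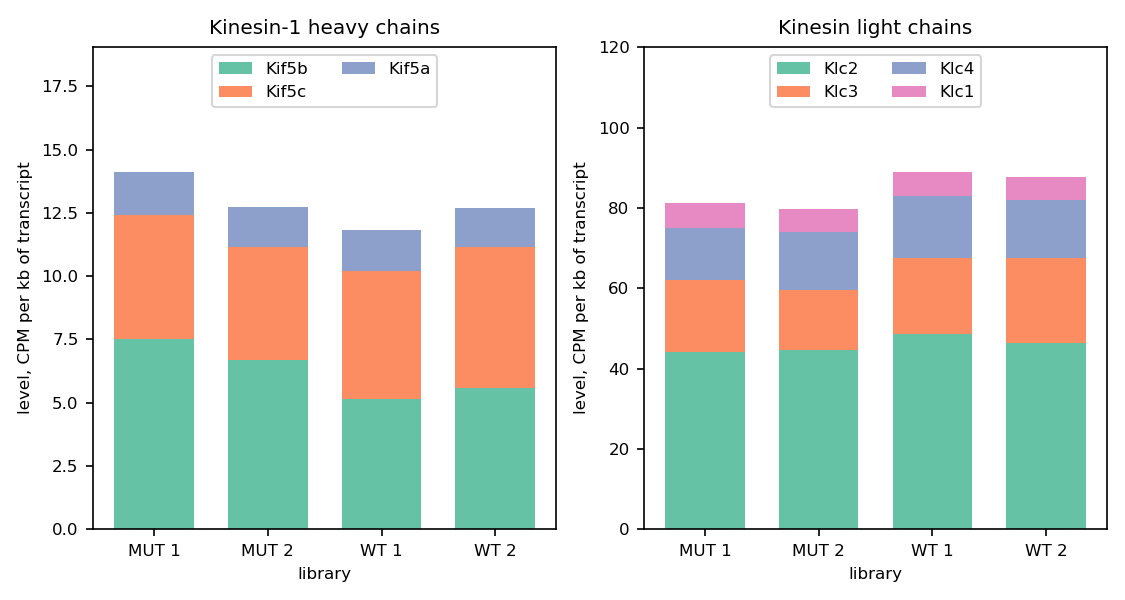
Stacked levels, in CPM per kb of transcript, of the kinesin-1 heavy chains (left) and light chains (right) in each library, with MUT 1 and MUT 2 left of WT 1 and WT 2. Kif5b takes 53.4% and 52.6% of the heavy chain stack in MUT and 43.3% and 44.1% in WT, and the light chain stacks reach 81.3 and 79.8 in MUT and 89.0 and 87.7 in WT.

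Kinesin-2 motors carry material into cilia and flagella. Kif3a and Kif3b pair with each other and with the adaptor Kifap3 in intraflagellar transport, and Kif17 works as a pair of identical chains. In mouse germ cells a form of Kif17 is known to move a coactivator of CREM, the transcription activator of round spermatids. None of the 4 members was called. Kif17 was at 598.4 and 572.8 CPM in MUT testis against 629.3 and 594.6 CPM in WT testis (log2 fold change -0.06, SE 0.0598, 95% interval -0.19 to 0.06), and its groups overlapped. It shares part of its strand with the weakly expressed Sh2d5, whose reads could be mixed with its own. Kif3b was at 296.6 and 305.9 CPM in MUT testis against 312.3 and 302.1 CPM in WT testis, and Kif3a at 106.7 and 98.9 CPM in MUT testis against 101.2 and 95.1 CPM in WT testis. For Kif3a and Kif3b the 95% intervals ran from -0.08 to 0.21 and from -0.16 to 0.10. These bounds are no limits of detection with 2 libraries per genotype. A larger difference in another member, Kif1a at -0.24, was not called either. Kif3c, another chain that pairs with Kif3a, was at 3.18 and 3.40 CPM in MUT testis against 2.61 and 2.90 CPM in WT testis, without overlap (0.22, SE 0.141, limma adjusted p = 0.493).

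Promoter windows, from 250 bases before to 50 bases after the annotated start, were at hand from RefSeq (GRCm38.p6) for 35 of the 43 members, as 39 windows. Of these windows 4 held the full cAMP response element TGACGTCA, which CREM binds (10.3%, against 1.79% of all 32851 windows of this length). They belonged to Kif17, Kif5c, Kif18a and Klc1. Since the element reads the same on both strands, a single search covers both. No window was at hand for Kif5b or Kif5a, so neither was searched. The windows of Kif17, among the most abundant members, and of Kif5c are shown with the element in capitals. They lie on the plus strand at chr4:138262001-138262300 and chr2:49619036-49619335, and the element begins 86 and 26 bases before the start.
Kif17: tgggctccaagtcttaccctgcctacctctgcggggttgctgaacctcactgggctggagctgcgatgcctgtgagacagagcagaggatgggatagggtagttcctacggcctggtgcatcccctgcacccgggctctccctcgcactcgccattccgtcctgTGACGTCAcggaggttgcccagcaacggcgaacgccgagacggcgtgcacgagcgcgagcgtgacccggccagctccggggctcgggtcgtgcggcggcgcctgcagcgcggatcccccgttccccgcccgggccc
Kif5c: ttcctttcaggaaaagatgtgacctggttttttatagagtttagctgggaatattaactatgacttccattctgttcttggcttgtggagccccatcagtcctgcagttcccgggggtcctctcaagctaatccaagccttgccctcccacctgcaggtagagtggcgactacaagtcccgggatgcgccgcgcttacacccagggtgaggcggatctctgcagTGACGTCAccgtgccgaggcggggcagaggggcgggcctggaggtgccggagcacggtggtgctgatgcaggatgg
The RefSeq start of Kif17 lies inside the gene as GENCODE places it, from 138250435 to 138301967 on chromosome 4. A match is a description of the letters and no evidence of binding, and none of these 4 genes was called.

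Kinesin-3 motors carry vesicles: Kif1a and Kif1b are known for the precursors of synaptic vesicles, Kif16b for early endosomes, and Kif14 acts in cytokinesis. The members lay on both sides of 0, with 5 above and 2 below, and none of 7 was called. Kif1a was at 32.4 and 31.8 CPM in MUT testis against 36.7 and 39.5 CPM in WT testis (log2 fold change -0.24, SE 0.0801, limma adjusted p = 0.166). Kif16b was at 57.9 and 62.4 CPM in MUT testis against 54.1 and 50.3 CPM in WT testis (0.20, SE 0.0761, adjusted p = 0.218). Kif13b was at 36.3 and 32.1 CPM in MUT testis against 27.4 and 31.4 CPM in WT testis (0.21, SE 0.0904, adjusted p = 0.276). These 3 genes had no overlap between the genotypes, with Kif1a lower and the other two higher in MUT. Kif1b averaged 111.6 ± 4.50 CPM in MUT testis against 107.6 ± 0.362 CPM in WT testis (SD, n = 2 each), without overlap. Kif1c (24.0 CPM in MUT, 24.4 CPM in WT), Kif14 (15.1 CPM in MUT, 14.5 CPM in WT) and Kif13a (7.66 CPM in MUT, 7.05 CPM in WT) overlapped.

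Among the kinesin-4 type motors, Kif7 and Kif27 are linked to cilia and Hedgehog signalling, Kif21a and Kif21b restrain microtubule growth in neurons, and Kif4 acts on chromosomes. Kif21a and Kif21b lay on opposite sides. Kif21a was at 43.6 and 37.9 CPM in MUT testis against 34.1 and 36.2 CPM in WT testis (log2 fold change 0.21, SE 0.0849, limma adjusted p = 0.254). Kif21b was at 108.4 and 102.4 CPM in MUT testis against 115.1 and 118.9 CPM in WT testis (-0.15, SE 0.0674, adjusted p = 0.306). Neither passed the test, and the difference between the 2 genes was not tested. Kif27, by far the most abundant of the group, overlapped at 324.5 and 306.5 CPM in MUT testis against 319.8 and 335.9 CPM in WT testis (95% interval -0.19 to 0.07). Kif7 averaged 4.01 CPM in MUT testis against 4.14 CPM in WT testis. Kif4 averaged 6.38 CPM in MUT testis against 6.42 CPM in WT testis, and its pseudogene Kif4-ps, at 22.2 CPM in MUT testis against 22.9 CPM in WT testis, is a close copy, so that the split of reads between them is uncertain.

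**Figure D5:**
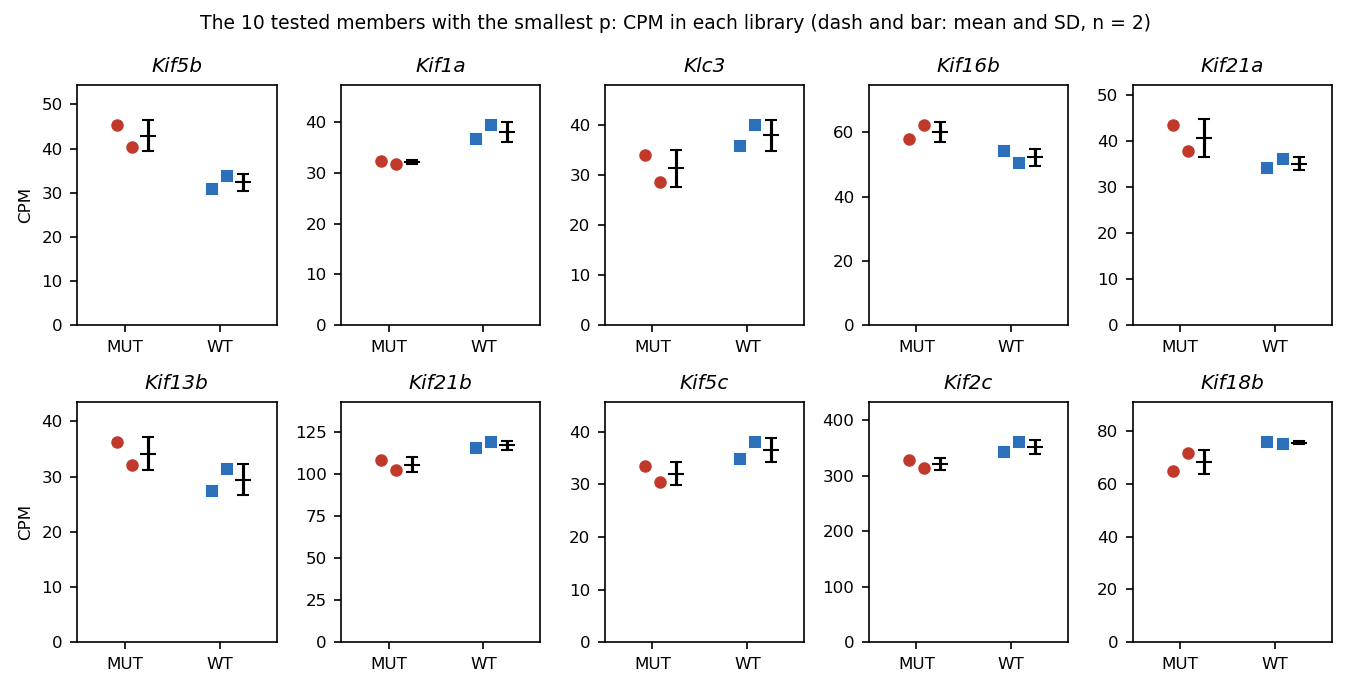
CPM in each library (y axis, from 0) of the 10 tested members with the smallest p, with MUT libraries as red circles left of WT libraries as blue squares and the mean with its SD (n = 2) beside them. The genotypes do not overlap in any of the 10 panels, which were chosen by p, so this is no separate result. Over all tested genes, 45.6% do not overlap. Kif5b, at the upper left, is the single gene of the 10 past the test over all genes.

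In all, 10 members, Kif4 and Kif14 among them, act in the spindle or in cytokinesis, and none was called: 3 lay above 0 and 7 below, between -0.15 and 0.11 on the log2 scale. Kif11, which pushes the spindle poles apart, was at 28.7 and 28.0 CPM in MUT testis against 25.6 and 28.5 CPM in WT testis. Kif23, a subunit of centralspindlin in the midbody, was at 53.0 and 52.8 CPM in MUT testis against 53.7 and 52.1 CPM in WT testis, the smallest difference of the 42 tested members (log2 fold change -0.0003, SE 0.073, 95% interval -0.15 to 0.15). Kif20a, which brings the chromosomal passenger complex to the midzone, was at 100.7 and 109.5 CPM in MUT testis against 110.1 and 109.4 CPM in WT testis. These 3 genes overlapped between the genotypes, and Kif20a also shares its position with Cdc23 on the opposite strand. Kif18a, which holds chromosomes at the spindle equator and is needed for germ cell divisions in the mouse, was at 23.4 and 26.7 CPM in MUT testis against 26.7 and 28.0 CPM in WT testis, with the groups all but touching (-0.13, SE 0.0887, limma adjusted p = 0.538). Its relative Kif18b was at 64.9 and 71.5 CPM in MUT testis against 75.8 and 75.0 CPM in WT testis (-0.15, SE 0.0731, adjusted p = 0.367). Kif20b did not overlap, at 42.8 and 40.9 CPM in MUT testis against 37.8 and 40.0 CPM in WT testis. Kif15 averaged 66.5 CPM in MUT testis against 69.8 CPM in WT testis, and the chromosome-binding Kif22 averaged 21.5 CPM in MUT testis against 22.2 CPM in WT testis.

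A short sequence that played no part in choosing the members was common in the promoters of this spindle group. The cell cycle homology region TTTGAA, or TTCAAA on the other strand, through which many genes of cell division are regulated, was found in 8 of the 9 spindle members with a window, all but Kif18a, against 17.9% of all windows. The windows of Kif11 and Kif23 are shown as examples, with the motif in capitals. They lie at chr19:37376132-37376431 on the plus strand and chr9:61946750-61947049 on the minus strand, and the motif begins 19 bases before the start of Kif11 and 2 bases after that of Kif23.
Kif11: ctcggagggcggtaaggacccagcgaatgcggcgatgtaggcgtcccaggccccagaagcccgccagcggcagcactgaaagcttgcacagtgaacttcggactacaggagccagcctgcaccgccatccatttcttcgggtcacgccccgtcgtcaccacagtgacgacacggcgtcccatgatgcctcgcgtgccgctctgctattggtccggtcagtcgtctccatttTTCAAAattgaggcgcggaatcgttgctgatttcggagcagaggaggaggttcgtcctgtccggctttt
Kif23: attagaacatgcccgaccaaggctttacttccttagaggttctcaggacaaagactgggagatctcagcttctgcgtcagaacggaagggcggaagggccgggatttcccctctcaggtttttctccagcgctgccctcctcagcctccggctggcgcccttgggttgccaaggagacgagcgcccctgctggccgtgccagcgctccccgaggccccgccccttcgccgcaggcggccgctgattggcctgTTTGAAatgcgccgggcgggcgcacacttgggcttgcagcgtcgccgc
A motif this short also occurs by its letters alone, and a match does not show that a factor binds there. Of the other motifs searched, the CCAAT box (CCAAT or ATTGG) was in 46.2% of member windows and 37.4% of all windows. GTTGCC, or GGCAAC on the other strand, is a part of the X-box of ciliary genes. It was in 30.8% of member windows and 12.5% of all windows, and in 11 of the 35 members with a window. These were Kif1a, Kif2a, Kif3a, Kif3c, Kif9, Kif16b, Kif17, Kif18a, Kif23, Kif24 and Klc3. The windows of Kif3b, Kif6, Kif7 and Kif27 lacked it, so it did not mark the cilium-linked members alone or all of them. No motif searched contains another, and both strands were read.

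The microtubule depolymerases shorten microtubules in place of walking. Kif2b, the member with the highest level, was at 739.9 and 713.9 CPM in MUT testis against 726.0 and 751.0 CPM in WT testis (log2 fold change -0.02, SE 0.0581, 95% interval -0.14 to 0.10), and its groups overlapped. Kif2c, which corrects faulty attachment of chromosomes, was at 328.2 and 312.9 CPM in MUT testis against 342.7 and 360.7 CPM in WT testis (-0.13, SE 0.0616, limma adjusted p = 0.321). Kif2a was at 237.3 and 238.8 CPM in MUT testis against 246.9 and 258.4 CPM in WT testis. Kif2c and Kif2a were lower in both MUT libraries, without passing the test, and Kif2a overlaps Dimt1 on the opposite strand. Kif24, which acts at the centriole and restrains cilia, overlapped, at 54.4 CPM in MUT testis against 51.5 CPM in WT testis.

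The remaining motors include those of the beating axoneme. Kif9, which in the mouse belongs to the central apparatus of the sperm flagellum, was at 302.2 and 347.0 CPM in MUT testis against 349.0 and 342.3 CPM in WT testis (log2 fold change -0.09, SE 0.0679, limma adjusted p = 0.552). MUT 1 stood apart and MUT 2 lay within the WT values, so the direction rests on MUT 1: without it the log2 fold change was 0.01. Kif6, of the same subfamily, was at 15.7 and 16.2 CPM in MUT testis against 16.6 and 16.5 CPM in WT testis. Kif19a, which trims microtubules at the tips of cilia, averaged 30.7 CPM in MUT testis against 32.8 CPM in WT testis. Kif26b, at 1.74 and 1.83 CPM in MUT testis against 2.27 and 2.25 CPM in WT testis, rested on 75 to 153 reads per library (-0.27, SE 0.154, adjusted p = 0.431), and Kif26a averaged 6.27 CPM in MUT testis against 6.32 CPM in WT testis. Of these, Kif6, Kif19a and Kif26b were lower in both MUT libraries, without passing the test. The 2 members that are no kinesin chains overlapped. Kif1bp was at 79.8 CPM in MUT testis against 80.2 CPM in WT testis and Kif16bos at 4.88 CPM in MUT testis against 4.6 CPM in WT testis.

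Genes that work with kinesins were described from 6 lists, and 1 of their 103 tested members was called, against 0.749% of all tested genes. Hook3, an adaptor that activates dynein, the motor that walks the opposite way, was at 19.3 and 18.6 CPM in MUT testis against 13.5 and 13.2 CPM in WT testis (log2 fold change 0.48, SE 0.0924, limma adjusted p = 0.0159). It was 1 of 29 genes of cytoplasmic dynein and dynactin, which had a median of 0.02, and its call held in 13 of 17 alternatives. The call was lost without MUT 1 (adjusted p = 0.0507), after the GC and length correction (0.36, adjusted p = 0.067), without the filter on low values (adjusted p = 0.145) and with no variance trend (adjusted p = 0.17). Dynlrb1, a dynein light chain, was next by p, at 9.96 and 13.3 CPM in MUT testis against 9.46 and 7.62 CPM in WT testis. Among 21 adaptors and activators of kinesins, Fyco1, which links autophagosomes to kinesin, was at 207.5 and 207.0 CPM in MUT testis against 177.6 and 165.1 CPM in WT testis, just short of the threshold (0.27, SE 0.0645, adjusted p = 0.053). Fyco1 was called with DESeq2 (adjusted p = 0.0155), without WT 1 (0.0141) and in 3 other alternatives. Map7d1, which recruits kinesin-1 to microtubules, was at 18.6 and 17.1 CPM in MUT testis against 22.6 and 20.7 CPM in WT testis (-0.27, adjusted p = 0.175). The adaptor list had a median of -0.02.

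Of 6 tested kinesin genes and subunits with other symbols, none was called and the median was -0.04. Kifap3, the partner of Kif3a and Kif3b, averaged 341.1 CPM in MUT testis against 339.5 CPM in WT testis, Cenpe 115.2 CPM in MUT testis against 118.8 CPM in WT testis, and Kifc3 94.3 CPM in MUT testis against 100.6 CPM in WT testis. Kifc1 (8.55 CPM in MUT, 8.71 CPM in WT testis) and Kifc5b (8.60 CPM in MUT, 8.51 CPM in WT testis) are close copies whose reads may be split. None of 20 partners of spindle kinesins was called (median 0.01), with Ect2 at 46.2 CPM in MUT testis against 39.5 CPM in WT testis and Ccnb1 at 66.5 CPM in MUT testis against 74.4 CPM in WT testis. None of 12 ciliary and Hedgehog partners was called (median 0.06), with 9 above 0 and 3 below. Among them Ccp110, the centriolar cap protein that binds Kif24, was at 237.5 CPM in MUT testis against 200.6 CPM in WT testis. The Hedgehog receptor gene Ptch1 was at 9.71 CPM in MUT testis against 7.42 CPM in WT testis. Gli1 went the other way, at 2.07 CPM in MUT testis against 3.02 CPM in WT testis (log2 fold change -0.45, limma adjusted p = 0.158). None of 15 tested tubulin genes was called (median -0.04), with Tuba1c at 50.4 CPM in MUT testis against 62.0 CPM in WT testis and Tube1 at 7.15 CPM in MUT testis against 6.03 CPM in WT testis. Tubulin paralogs share much of their sequence, so the split of reads between them is uncertain.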

How the data were processed

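RNA of whole testis was sequenced in 2 MUT and 2 WT libraries, made with a stranded kit that selects polyadenylated RNA, per the labels' protocols. The authors deposited a table of CPM, read counts scaled to a library size that was not the plain total of assigned reads. The CPM summed to 992500 and 987700 in MUT 1 and MUT 2, against 1011000 and 1009000 in WT 1 and WT 2. Rescaling to equal totals removed this difference between the genotypes. The build mm10, edgeR 3.8.6, HTSeq 0.6.0 and TopHat2 2.0.10 are named, per the submitters' processing notes, with no roles given. How strands were handled in counting is not known from these sources. All values (100%) lay within 0.001 of a whole read once divided by the least value above 0 of that library. Genes with at least 1 CPM in at least 2 libraries were tested on log2(CPM + 0.5) with limma 3.58.1 (R 4.3.3, mean-variance trend, two-sided), adjusting p by Benjamini and Hochberg's method over the 15364 genes tested, with a threshold of 0.05. A fold change is the MUT minus WT difference of log2(CPM + 0.5), which is too small for weak genes. The median SE was 0.0948. An exact permutation test of 2 against 2 libraries cannot give a two-sided p below 0.333 and was not used for single genes. Count tests on the recovered reads (edgeR 4.0.16, DESeq2 1.42.0), other pseudocounts, filters and scalings, a replicate block, each library left out, and removal of a smooth trend on GC content and length (mgcv 1.9.3) were alternatives. Transcript length, GC content and 1-based positions came from GENCODE vM21. The fits were tested on simulated reads. With 200 genes changed, limma called 10 of 49 genes changed 1.2-fold and 42 of 50 changed 1.5-fold. It also called 15 of 15122 unchanged genes in that simulation. With no gene changed, it called 0 of 15323. The members, lists and named genes were chosen with earlier results of these data known. Named were all called members, the 10 with the smallest p, the 10 with the highest mean CPM and fixed members of each role; of the lists, called genes and the 2 with the smallest p. The rest were named after their values were seen. Lists are described by counts and medians, without a test.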

Additional observations from a re-analysis of the deposited data

How the results depend on the processing

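The log2 fold change of Kif5b was above 0 in all 17 alternatives, and its call (the 1 member called higher) fell away, leaving 0, in 6: without the filter on low values (limma adjusted p = 0.211), without the variance trend (0.216), after quantile normalization (0.059), with the replicate block (0.0507), and without MUT 1 or WT 1, so that the count ranged from 0 to 1 when libraries were left out. No other member was called in any of the 693 results under alternatives (lowest adjusted p = 0.0668). Over all genes, against 74 higher and 41 lower, the calls were 7 and 4 without the filter, 5 and 2 with no variance trend, 35 and 18 after quantile normalization, 122 higher after rescaling to equal totals (78.2% of calls higher, against 64.3%), 72 lower with DESeq2, 67 to 133 higher and 42 to 177 lower with a library left out, and 131 and 104 with crossed replicate numbers, an alternative chosen after seeing the data. The median log2 fold change of the members was 0.0031 after rescaling, which moved that of all tested genes to 0.0258, and -0.021 to -0.012 with a library left out. Of the other genes named, Fyco1 was also called after rescaling (adjusted p = 0.0287), with the 5 CPM filter (0.0454) and with crossed numbers (0.0313). Dynlrb1 was called without MUT 1 (0.0032) or WT 1 (0.0485), and Tuba1c without MUT 1 (0.0341) or WT 1 (0.016) and with crossed numbers (0.0367). Ccp110 was called without WT 2 (0.0269) and with crossed numbers (0.0415). The replicate numbers were not taken to pair the libraries, as nothing in the labels says so and same-number deviations correlated at -0.134; the replicate block gave 57 higher and 31 lower genes.

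Direction changed in at least 1 alternative for 19 members and for Cenpe, which is not a member, and none of these was called. As reported, the 19 members ranged from Kif9 at -0.09 to Kif13a at 0.11. After quantile normalization Kif1bp was at 0.0035 and Kif2b at 0.05. After rescaling, Kif1bp was at 0.022, Kif1c at 0.0097, Kif23 at 0.028, Kif26a at 0.013, Kif2b at 0.0058, Kif3b at 0.00038 and Kif4 at 0.011. With the GC and length trend removed, Kif14 was at -0.0406, Kif17 at 0.017, Kif1b at -0.056, Kif26a at 0.0399 and Kif7 at 0.011. With a library left out, the ranges were -0.0071 to 0.14 for Kif11, -0.011 to 0.23 for Kif13a, -0.20 to 0.0664 for Kif15, -0.14 to 0.27 for Kif16bos, -0.027 to 0.015 for Kif1bp, -0.099 to 0.062 for Kif1c, -0.11 to 0.0201 for Kif22, -0.022 to 0.021 for Kif23, -0.0103 to 0.17 for Kif24, -0.13 to 0.10 for Kif26a, -0.049 to 0.0029 for Kif2b, -0.15 to 0.12 for Kif4, -0.0016 to 0.089 for Kif5a, -0.17 to 0.081 for Kif7, -0.19 to 0.0058 for Kif9 and -0.0951 to 0.0066 for Cenpe. Rescaling raised every gene by about the shift in the median given above, so a change of direction under it alone is no change relative to the other genes. The cause was not tested. With 2 libraries per genotype, real changes could go uncalled, and the intervals given are no limits of detection.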
